A study of Mus musculus with 24 samples.

Results

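Glycine tRNA fragments made up 106 of the 4408 features counted when small RNA was sequenced from cultured mouse CD4+ T cells and from the extracellular vesicles (EVs) in their medium. They were taken by name, as every counted feature whose name begins with tRNA-Gly- (a rule with no measured value, applied to an amino acid proposed with earlier results of these data known). They belong to 27 tRNA loci, of which 15 carry the anticodon GCC, 8 TCC, 3 CCC and 1 ACC. A name such as tRNA-Gly-GCC-2-1 gives the anticodon, the gene family (GCC-2) and the copy within it (1), and the text after the colon gives the kind of fragment. There were 7 kinds: 27 features were 5FR_1, 26 were 5_half_up, 22 were 3FR_1, 14 were 5FR_2, 10 were 3_Internal, 4 were 5FR_S and 3 were 3FR_2. These are the authors' own names, whose leading 5 or 3 gives the end of the tRNA, and the sources used here do not give where exactly each kind begins and ends.

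The T cells came from the lymph nodes and spleen of C57BL/6 mice, and the 24 libraries fell into 8 groups of 3. Resting cultures had 2 days of stimulation, 1 day of expansion and 2 days of rest in medium with IL2. Stimulated cultures were kept for 3 days with anti-CD3 on the plate (2 µg/ml) and anti-CD28 (5 µg/ml). DMSO and GW4869 cultures were stimulated for 3 days as well, with the vehicle or with GW4869, an inhibitor of neutral sphingomyelinase, and the labels give no antibody dose for them. Each of these 4 conditions has 3 libraries of cells and 3 of EVs isolated from the medium. Resting and stimulated cultures also differ in culture length and history, which cannot be told apart from the stimulation. Nothing in the labels says that replicates are separate mice or separate cultures, so p-values measure the spread between these libraries, which may be technical.

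Glycine tRNAs carry glycine to the ribosome, and their anticodon sets which glycine codons they read: CCC pairs with GGG, TCC mainly with GGA, and GCC with GGC and GGU. Mature tRNAs are cut by nucleases such as angiogenin, which cleaves in the anticodon loop, and the resulting 5' and 3' fragments are a regular part of the small RNA of cells. Fragments of the 5' end of glycine tRNAs, above all of the GCC isoacceptor, are known as an abundant class of RNA outside cells, in EVs and in serum. The RefSeq annotation of GRCm38 lists 28 glycine tRNA genes, with 14 GCC, 7 TCC, 6 CCC and 1 ACC gene. Of these genes 10 lie on chromosome 1, where 9 of them, 4 GCC and 5 TCC, stand between 171037997 and 171102827. The locus names of the count files were not paired with the RefSeq genes, so no locus below is given a position.

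Library totals ran from 1290918 to 3231626 counts, and the glycine features took 7282 to 27200 of them. Levels are CPM (counts divided by the library total and multiplied by 1e+06) after TMM scaling, which sets library sizes so that most features do not differ. A call is an adjusted p under 0.05 (edgeR quasi-likelihood test, Benjamini-Hochberg over all features). A fold is a log2 difference with its standard error (SE). Direction depends on the scale in some comparisons: using library totals in place of TMM moved the median log2 fold of all features by -0.15 to 1.12 over the 12 comparisons, and RLE factors moved it by -0.23 to 0.14. A comparison of EVs with cells is one of shares of each library's small RNA, and no library says how much RNA a vesicle or a cell held. Replicate 3 of the GW4869 cells and replicate 3 of the resting EVs stand apart from their groups in these fragments, and the main results that rest on them are given with and without them. Of the T cell and leukocyte miRNAs listed (Mir142, Mir150, Mir155, Mir181a-1, Mir181a-2 and Mir146a), 5 of 6 were measured, at summed levels between 20910 and 270100 CPM. Of the markers of other cells, myeloid Mir223, liver Mir122 and the muscle, stromal and neural lists were not measured, and erythroid Mir451a ranged from 9.68 to 95.9 CPM. Platelet and endothelial Mir126a was at 30.2 to 163 CPM, and 2 of 6 epithelial miRNAs (Mir141 and Mir200c) summed to 35.1 to 145 CPM. Their part in the results below was not tested.

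The weight of glycine among the tRNA fragments differed between EVs and cells in every condition. Glycine features held 12.2% ± 0.952 (SD, n = 3) of all nuclear tRNA counts in resting cells and 16.6% ± 1.56 in resting EVs. In stimulated cultures the share was 12.7% ± 0.638 in cells and 31.1% ± 1.74 in EVs. DMSO cultures had 14.5% ± 0.75 in cells and 31.3% ± 0.792 in EVs, and GW4869 cultures 15.7% ± 2.62 and 32.9% ± 1.08. No EV library overlapped the cell libraries of its condition, and the 3 groups of EVs from 3-day cultures stood at about the same share, above the resting EVs. These shares are counted within a library and do not depend on its scale.

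The anticodons shared out differently as well. GCC features gave 79.7% ± 0.531 of the glycine counts in resting cells against 49.0% ± 4.66 in resting EVs, and TCC features 3.75% ± 0.127 against 16.3% ± 2.63. In stimulated cultures the GCC share was 71.9% ± 1.75 in cells and 49.4% ± 0.578 in EVs, while the TCC share was 6.12% ± 0.279 and 24.5% ± 0.46. In all 4 conditions every EV library had a lower GCC share and a higher TCC share than every cell library. The ACC locus, the rarest, made 0.22% to 0.23% of the glycine counts on average in the cell groups and 1.21% to 1.52% in the EV groups. The CCC share did not order the libraries in 1 way: it was higher in resting EVs (33.2% ± 1.92) than in resting cells (16.3% ± 0.681), and lower in GW4869 EVs (23.7% ± 0.868) than in GW4869 cells (25.7% ± 1.74), where the groups overlapped.

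By kind, 5FR_1 was the leading fragment in all 12 EV libraries, at 54.5% to 68.7% of the glycine counts. In cells its share was 43.7% ± 2.81 (resting), 30.8% ± 2.43 (stimulated), 27.0% ± 2.39 (DMSO) and 37.3% ± 16.3 (GW4869). The wide spread of the last group comes from replicate 3, with 55.9% against 30.4% and 25.7% in the other libraries. The kind named 5_half_up moved the other way, with 37.2% ± 6.65 of the glycine counts in stimulated cells and 12.3% ± 0.866 in stimulated EVs, and 56.5% ± 2.07 in DMSO cells and 21.7% ± 0.465 in DMSO EVs. GW4869 cells again held 1 low library, replicate 3 at 31.03%, against 52.4% and 55.1%.

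**Figure D1:**
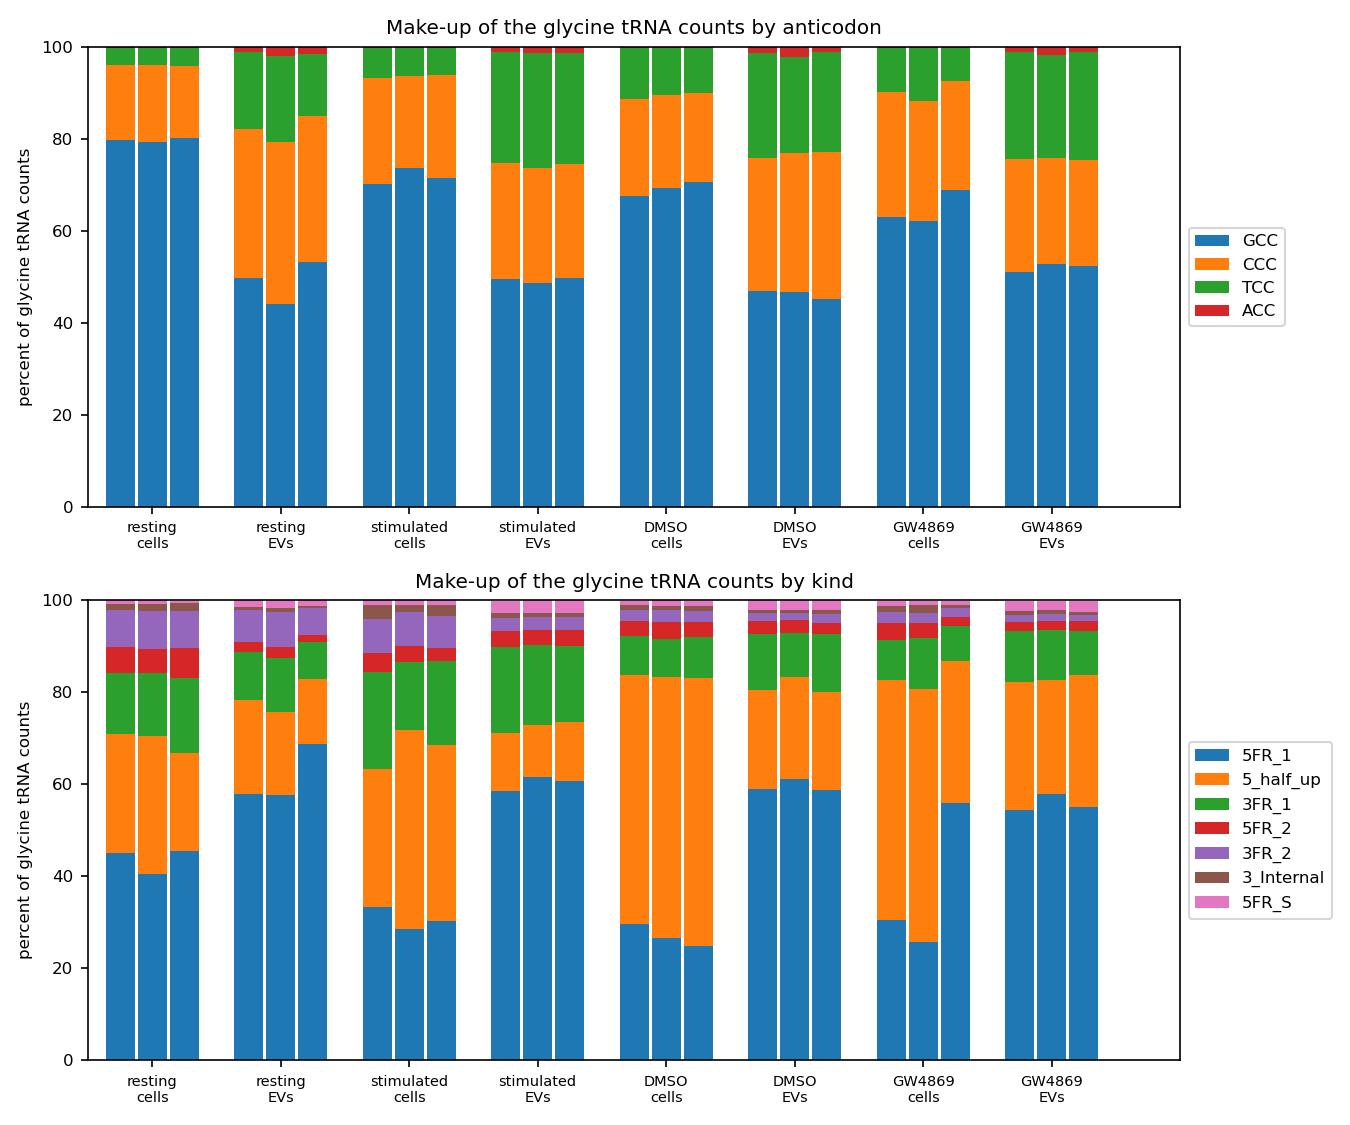
Make-up of the glycine tRNA counts in each of the 24 libraries, by anticodon (top) and by kind of fragment (bottom), as percent of all glycine counts of that library (y axis), with 3 bars per group in replicate order (x axis). The TCC part is larger in every EV library than in the cell libraries of its condition, 5FR_1 is the largest kind in all EV libraries, and replicate 3 of the GW4869 cells stands apart from its group with 55.9% 5FR_1.

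To compare fragments between groups, the loci were summed by anticodon and kind, which gave 18 sums. Of these, 9 were higher and 7 lower in resting EVs than in resting cells, beside 16.2% higher and 12.7% lower of all 3798 features of that table. In stimulated cultures 13 sums were higher and 2 lower in EVs (27.3% and 23.6% of all features), in DMSO cultures 9 and 2 (38.4% and 27.4%), and in GW4869 cultures 6 and 6 (39.8% and 30.5%). The 6 sums TCC 5FR_1, TCC 3FR_1, ACC 5FR_1, CCC 5FR_2, CCC 5FR_S and CCC 3FR_2 were called higher in EVs in all 4 conditions, and 2 sums, GCC 5_half_up and GCC 3FR_2, were called lower in all 4. The share of all 3798 features called the same way in all 4 conditions is not given, so these 2 counts have no background beside them.

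**Figure D2:**
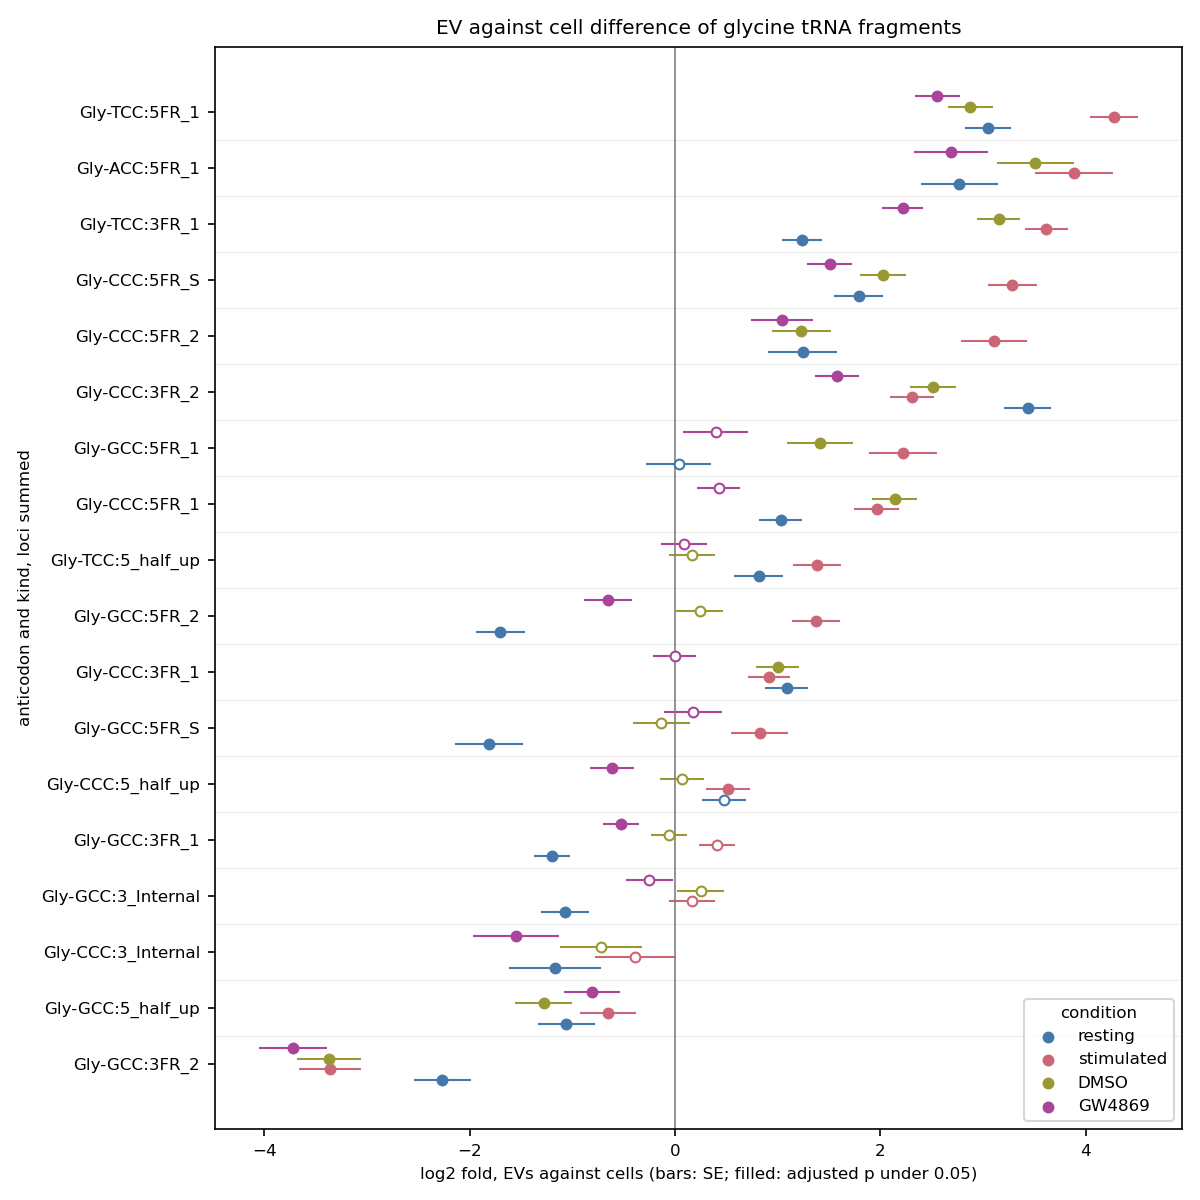
Log2 fold of EVs against cells (x axis) for the 18 sums of loci by anticodon and kind (y axis, ordered by the fold in stimulated cultures), in 4 conditions. Bars are SE and filled points have an adjusted p under 0.05. TCC 5FR_1 lies between 2.56 and 4.27 and GCC 3FR_2 between -3.72 and -2.27, while GCC 5FR_2 goes from -1.70 in resting to 1.37 in stimulated cultures.

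TCC 5FR_1, the 5' fragment of the isoacceptor that reads GGA, had the highest EV to cell difference of the 18 sums in stimulated cultures. Its level was 106, 105 and 113 CPM in the 3 libraries of resting cells and 1038, 783 and 854 CPM in resting EVs. Stimulated cells had 50.8, 64.6 and 53.6 CPM and stimulated EVs 810, 1103 and 1356 CPM. DMSO cells had 142, 124 and 90.2 CPM, DMSO EVs 724, 1123 and 769 CPM, GW4869 cells 138, 111 and 111 CPM, and GW4869 EVs 702, 757 and 659 CPM. EVs and cells did not overlap in any condition. The log2 fold was 3.05 (SE 0.224, adjusted p = 7.72e-11) in resting, 4.27 (SE 0.235, adjusted p = 2.74e-13) in stimulated, 2.87 (SE 0.22) in DMSO and 2.56 (SE 0.217) in GW4869 cultures. These calls held under every alternative tried.

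GCC 5FR_1, the most abundant of the sums, followed the condition. Resting cells had 2426, 2265 and 2384 CPM and resting EVs 2297, 1463 and 3482 CPM, which overlapped (log2 fold 0.03, SE 0.316, adjusted p = 0.957). Without replicate 3 of the resting EVs the fold was -0.35 (adjusted p = 0.516). In stimulated cells the level was 539, 634 and 530 CPM, against 2057, 2554 and 3320 CPM in stimulated EVs, a log2 fold of 2.22 (SE 0.33, adjusted p = 3.54e-06). DMSO cells had 934, 929 and 793 CPM and DMSO EVs 1880, 3020 and 2170 CPM, a fold of 1.41 (SE 0.322, adjusted p = 0.000509). GW4869 cells had 1055, 717 and 2506 CPM and GW4869 EVs 1823, 2078 and 1731 CPM, a fold of 0.40 (SE 0.316, adjusted p = 0.265) that was 1.08 (SE 0.281, adjusted p = 0.00162) without replicate 3 of the GW4869 cells, 1.14 with library totals and 0.83 on the scale of the nuclear tRNAs. On the TMM scale resting cells lay within the range of the EV libraries, and the cells of the other conditions, apart from that replicate, lay below it. The TMM factors were 0.56 to 0.58 in resting cells and 1.09 to 1.76 in the EVs of the 3-day cultures, so this order across conditions depends on the scale.

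The ratio of TCC to GCC counts of 5FR_1, which needs no scaling, put the 2 anticodons side by side. It was 0.0458 ± 0.0021 (SD, n = 3) in resting cells and 0.411 ± 0.149 in resting EVs. Replicate 3 of the resting EVs had 1606 TCC and 6546 GCC counts. Replicates 1 and 2 had 1280 and 1116 TCC and 2833 and 2085 GCC counts. Stimulated cells had 0.0991 ± 0.0042 and stimulated EVs 0.411 ± 0.0193, while DMSO cells had 0.133 ± 0.0193 and DMSO EVs 0.370 ± 0.0152. GW4869 cells ranged from 0.0445 in replicate 3 to 0.155, and GW4869 EVs were at 0.377 ± 0.0111. In each condition the ratio was higher in every EV library than in every cell library.

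CCC 5FR_1, from the isoacceptor that reads GGG, was at 632, 636 and 611 CPM in resting cells and at 1229, 1064 and 1541 CPM in resting EVs. Stimulated cells had 306, 282 and 295 CPM and stimulated EVs 903, 1117 and 1422 CPM. The EV to cell fold was 1.03 (SE 0.211) in resting, 1.96 (SE 0.216) in stimulated and 2.14 (SE 0.218) in DMSO cultures, where cells had 351, 342 and 301 CPM and EVs 1034, 1921 and 1426 CPM. GW4869 cells had 440, 380 and 575 CPM and GW4869 EVs 639, 691 and 542 CPM, a fold of 0.42 (SE 0.209) with an adjusted p of 0.0731, and of 0.61 (SE 0.23, adjusted p = 0.0232) without replicate 3 of the cells, 1.16 with library totals and 0.85 on the scale of the nuclear tRNAs. The groups were apart in the first 3 conditions and overlapped under GW4869 through that library. ACC 5FR_1, from a single locus, was at 10.3, 19.2 and 19.9 CPM in resting cells and at 80.3, 121 and 134 CPM in resting EVs. Stimulated cells had 5.8, 7.08 and 7.46 CPM and stimulated EVs 65.0, 107 and 131 CPM. The values were 10.1, 13.4 and 9.67 CPM in DMSO cells, 80.3, 212 and 88.3 CPM in DMSO EVs, 10.9, 13.5 and 12.2 CPM in GW4869 cells, and 70.2, 104 and 63.3 CPM in GW4869 EVs. Every EV library lay above every cell library, with folds of 2.77, 3.89, 3.51 and 2.69 in resting, stimulated, DMSO and GW4869 cultures (SE 0.36 to 0.379). The cell libraries held 12 to 28 counts of ACC 5FR_1.

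**Figure D3:**
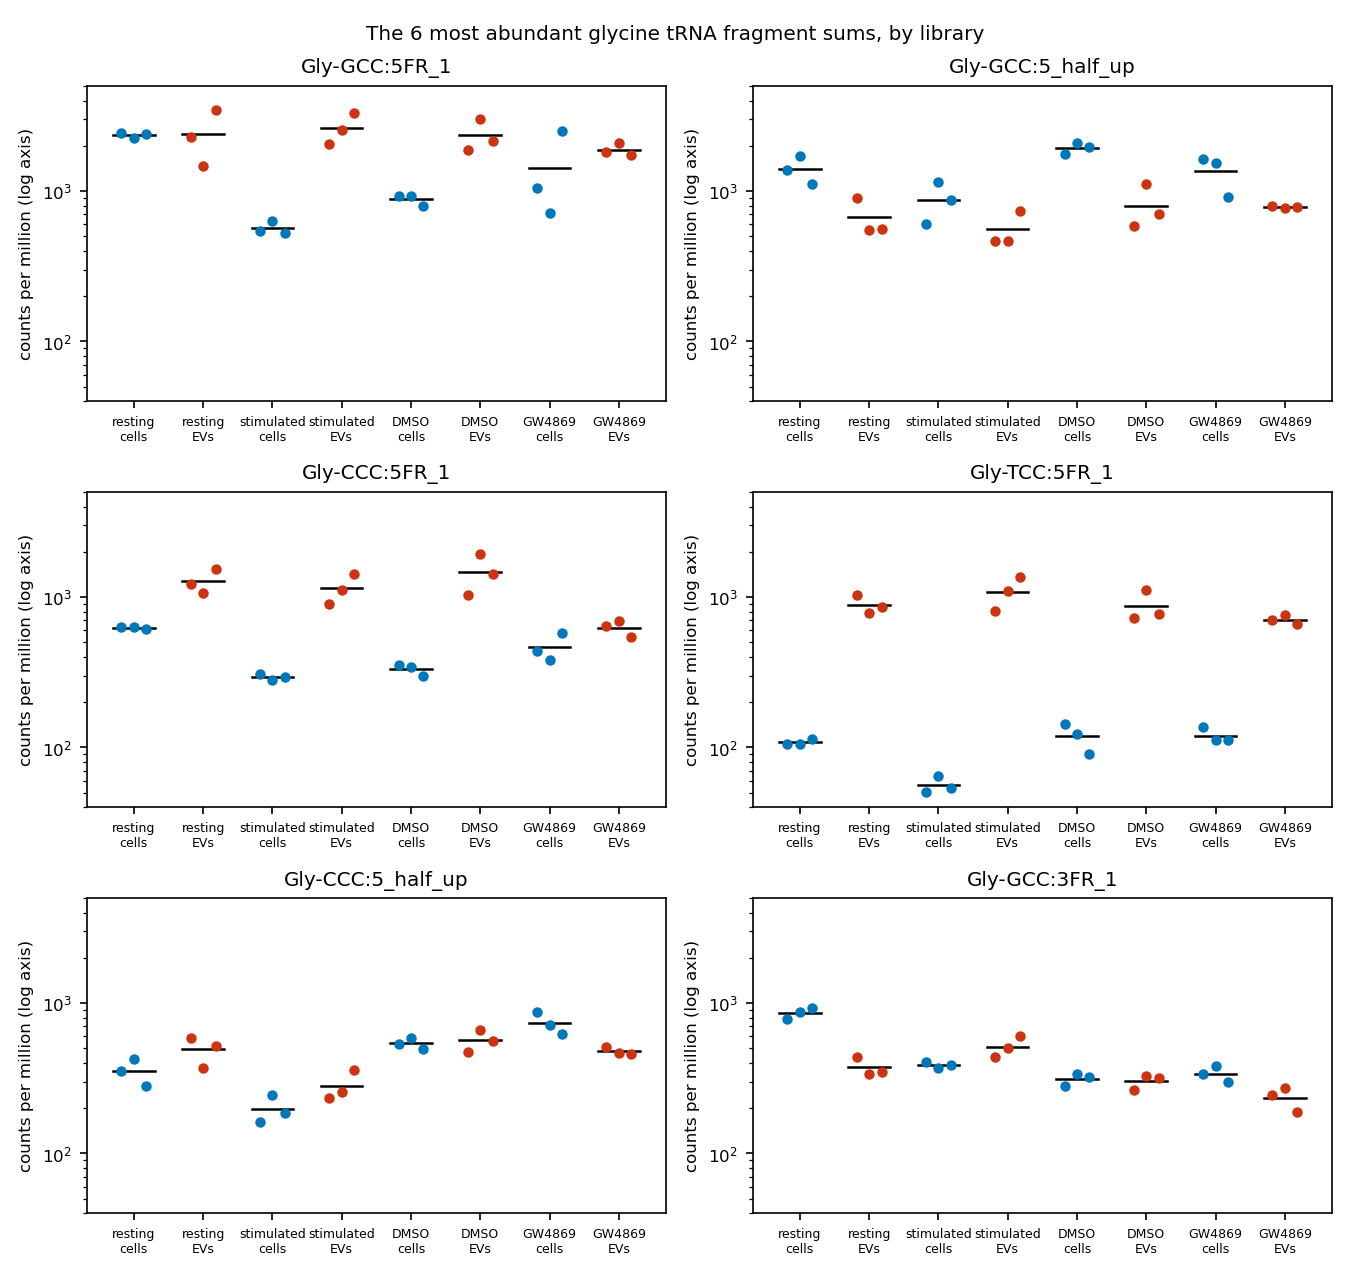
CPM (y axis, log scale) of the 6 sums with the highest mean over the 24 libraries, by group (x axis). Each point is a library, blue for cells and red for EVs, and the line is the mean of 3. TCC 5FR_1 separates EVs from cells in every condition, GCC 5FR_1 overlaps between resting cells and resting EVs, and replicate 3 of the GW4869 cells stands at 2506 CPM of GCC 5FR_1 above its group. Levels are after TMM scaling, and their order across conditions depends on it.

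GCC 5_half_up was the second most abundant sum and was lower in EVs in all 4 conditions, where 5FR_1 of the same loci was higher or had no call. Its families differed in resting cultures, as given below. Resting cells had 1376, 1720 and 1115 CPM and resting EVs 906, 554 and 563 CPM (log2 fold -1.06, SE 0.276, adjusted p = 0.00387). Stimulated cells had 601, 1156 and 874 CPM and stimulated EVs 463, 465 and 741 CPM, which overlapped (fold -0.66, SE 0.273, adjusted p = 0.0479). DMSO cells had 1773, 2079 and 1955 CPM and DMSO EVs 585, 1107 and 702 CPM (fold -1.28, SE 0.276, adjusted p = 0.000287), and GW4869 cells 1647, 1547 and 914 CPM against 795, 776 and 780 CPM in EVs (fold -0.80, SE 0.273, adjusted p = 0.011). The resting and DMSO calls held under every alternative tried. The stimulated call was lost with library totals (-0.31) and without stimulated EVs replicate 1 (-0.54), EVs replicate 2 (-0.54), cells replicate 2 (-0.38) or cells replicate 3 (-0.66, adjusted p = 0.0855). The GW4869 call was lost with library totals (-0.07), on the scale of the nuclear tRNAs alone (-0.38) and without GW4869 cells replicate 1 (-0.65, adjusted p = 0.0588).

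Within the GCC loci the ratio of 5FR_1 to 5_half_up counts was 0.684 ± 0.187 (SD, n = 3) in stimulated cells and 4.81 ± 0.601 in stimulated EVs, and 0.46 ± 0.0616 in DMSO cells and 3.01 ± 0.252 in DMSO EVs. In resting cells it was 1.32 to 2.14, below the resting EVs at 2.53, 2.64 and 6.18. For TCC the same ratio was 1.28 ± 0.27 in resting cells and 5.89 ± 1.13 in resting EVs, and 0.87 ± 0.157 and 6.23 ± 0.144 in stimulated cells and EVs. GW4869 cells replicate 3 again stood apart, with a GCC ratio of 2.74 against 0.64 and 0.463, while its TCC ratio of 0.467 was near the 0.434 and 0.313 of its group.

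Of the other 5_half_up sums, CCC was called lower in EVs with GW4869 and TCC in no condition. CCC 5_half_up was at 354, 427 and 281 CPM in resting cells and 589, 373 and 519 CPM in resting EVs, with no call (fold 0.48, adjusted p = 0.101, or 0.68 with a call when library totals set the scale). Stimulated cells had 161, 245 and 187 CPM and stimulated EVs 233, 257 and 359 CPM, which overlapped. The stimulated fold of 0.52 (adjusted p = 0.0466) held in 4 of 14 alternatives. It was lost under RLE factors (0.36), in DESeq2 (0.36), with a minimum count of 50 (0.47), with only the groups compared (0.48), with the replicate block (0.51) and without stimulated EVs replicate 2 (0.58, adjusted p = 0.054) or replicate 3 (0.31) or cells replicate 1 (0.35) or replicate 3 (0.48), and it turned to -0.04 on the scale of the nuclear tRNAs. DMSO cells had 534, 588 and 498 CPM and DMSO EVs 471, 667 and 558 CPM, which overlapped (fold 0.07, adjusted p = 0.803, or 0.59 with a call when library totals set the scale). GW4869 cells had 867, 720 and 626 CPM and GW4869 EVs 514, 469 and 462 CPM, a fold of -0.62 (adjusted p = 0.0122). It became 0.12 with library totals and lost the call on the scale of the nuclear tRNAs (-0.19) and without GW4869 cells replicate 1 (-0.48). TCC 5_half_up was higher in EVs in resting (0.82, SE 0.24) and stimulated cultures (1.38, SE 0.235). The resting call was lost without resting EVs replicate 3 (0.75, adjusted p = 0.0513) or resting cells replicate 3 (0.69), and the DMSO and GW4869 folds were 0.17 and 0.09 with no call, or 0.67 and 0.82 with a call when library totals set the scale.

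In the kinds 5FR_S and 5FR_2 the CCC fragments were higher in EVs in every condition, while the GCC fragments changed sides. CCC 5FR_S was at 27.5, 35.0 and 21.7 CPM in resting cells and at 114, 87.0 and 92.0 CPM in resting EVs. Stimulated cells had 21.8, 22.2 and 21.0 CPM and stimulated EVs 168, 200 and 267 CPM. DMSO cells had 35.9, 44.6 and 32.9 CPM, DMSO EVs 114, 201 and 148 CPM, GW4869 cells 46.8, 36.1 and 41.4 CPM, and GW4869 EVs 118, 119 and 115 CPM. Its folds were 1.79 (SE 0.241), 3.29 (SE 0.237), 2.02 (SE 0.227) and 1.504 (SE 0.223) in resting, stimulated, DMSO and GW4869 cultures, with groups apart throughout. CCC 5FR_2 was a small sum, on 7 to 104 counts a library. It was at 6.01, 12.5 and 6.62 CPM in resting cells and 17.8, 19.6 and 22.3 CPM in resting EVs, and at 2.39, 3.77 and 4.26 CPM in stimulated cells and 26.3, 28.2 and 36.2 CPM in stimulated EVs. DMSO cells had 9.52, 17.3 and 10.3 CPM, DMSO EVs 24.1, 35.2 and 28.5 CPM, GW4869 cells 10.9, 5.78 and 9.14 CPM, and GW4869 EVs 16.9, 16.4 and 19.9 CPM. The groups were apart in each condition, with folds of 1.24, 3.11, 1.23 and 1.04 (SE 0.287 to 0.336), of which the last lost its call without GW4869 EVs replicate 3 (0.77, adjusted p = 0.0505).

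GCC 5FR_2 turned from lower to higher in EVs between resting and stimulated cultures. Resting cells were at 381, 391 and 447 CPM and resting EVs at 144, 121 and 110 CPM, a fold of -1.70 (SE 0.238, adjusted p = 2.07e-06). Stimulated cells were at 105, 119 and 76.0 CPM and stimulated EVs at 207, 241 and 329 CPM, a fold of 1.37 (SE 0.234, adjusted p = 2.4e-05). Every resting EV library was below every resting cell library, and every stimulated EV library above every stimulated cell library. In DMSO cultures the fold was 0.24 (adjusted p = 0.366; 0.75 with a call under library totals), and under GW4869 it was -0.65 (adjusted p = 0.0156), which turned to 0.08 with library totals and lost its call on the scale of the nuclear tRNAs (-0.23) and without GW4869 cells replicate 1 (-0.44). GCC 5FR_S, on 8 to 59 counts a library, went from -1.81 (SE 0.329) in resting to 0.82 (SE 0.277) in stimulated cultures, and the latter held in 9 of 14 alternatives. It was lost on the scale of the nuclear tRNAs (0.28), under RLE factors (0.67), in DESeq2 (0.67) and without stimulated EVs replicate 3 (0.70) or cells replicate 1 (0.65).

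Among the 3' kinds, TCC 3FR_1 was higher in EVs by 1.24 (SE 0.199) in resting, 3.62 (SE 0.207) in stimulated, 3.15 (SE 0.205) in DMSO and 2.22 (SE 0.197) in GW4869 cultures. Its level was 69.5, 66.7 and 81.3 CPM in resting cells, 72.3, 52.8 and 59.0 CPM in stimulated cells, 70.0, 51.3 and 41.9 CPM in DMSO cells and 63.7, 78.5 and 65.7 CPM in GW4869 cells. Resting EVs had 178, 173 and 162 CPM, stimulated EVs 644, 708 and 914 CPM, DMSO EVs 418, 524 and 512 CPM, and GW4869 EVs 341, 332 and 294 CPM. The 12 cell libraries thus lay between 41.9 and 81.3 CPM, below every EV library. GCC 3FR_1 was lower in resting EVs (439, 337 and 347 CPM) than in resting cells (780, 869 and 931 CPM), with a fold of -1.20 (SE 0.177). Stimulated cells had 409, 368 and 388 CPM and stimulated EVs 437, 505 and 601 CPM, which were apart but had no call (0.40, adjusted p = 0.0551). There was one with library totals (0.74) and without stimulated EVs replicate 1 (0.51, adjusted p = 0.0339). DMSO cells had 280, 337 and 324 CPM and DMSO EVs 263, 326 and 317 CPM, a fold of -0.06 that was 0.48 with library totals. GW4869 cells had 337, 381 and 299.9 CPM and GW4869 EVs 244, 274 and 188 CPM. This fold of -0.53 (adjusted p = 0.00982) turned to 0.21 with library totals and lost its call on the scale of the nuclear tRNAs (-0.10) and without GW4869 cells replicate 2 (-0.43). The ratio of TCC to GCC 3FR_1 counts was 0.157 ± 0.0174 (SD, n = 3) in stimulated cells and 1.47 ± 0.0588 in stimulated EVs, and 0.0844 ± 0.00666 and 0.461 ± 0.0549 in resting cells and EVs. CCC 3FR_1 was higher in EVs by 1.09, 0.91 and 1.00 in resting, stimulated and DMSO cultures (SE 0.204 to 0.21), with a GW4869 fold of 0.00 that was 0.74 with library totals and 0.40 on the scale of the nuclear tRNAs.

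The kind 3FR_2 had 3 glycine features, CCC-1-1, CCC-1-2 and GCC-2-1. The CCC pair and the single GCC locus went in opposite directions. The CCC pair summed to 37.8, 41.7 and 29.3 CPM in resting cells and to 415, 363 and 402 CPM in resting EVs. In stimulated cultures the values were 36.2, 42.0 and 49.0 CPM in cells and 173, 203 and 255 CPM in EVs. GCC-2-1 was at 528, 572 and 528 CPM in resting cells and at 144, 91.2 and 103 CPM in resting EVs. It was at 165, 212 and 155 CPM in stimulated cells and at 10.6, 13.2 and 28.7 CPM in stimulated EVs. In DMSO cultures the CCC pair was at 24.1, 23.4 and 18.1 CPM in cells and 97.9, 142 and 136 CPM in EVs, and GCC-2-1 at 89.6, 114 and 94.1 CPM and 7.32, 14.4 and 7.63 CPM. In GW4869 cultures the CCC pair was at 23.9, 22.2 and 34.4 CPM in cells and 84.1, 83.0 and 73.9 CPM in EVs, and GCC-2-1 at 99.0, 82.4 and 70.1 CPM and 6.07, 7.44 and 5.28 CPM. In every condition all EV libraries were above all cell libraries for CCC and below them for GCC. The CCC folds were 3.43 (SE 0.228), 2.31 (SE 0.211), 2.51 (SE 0.225) and 1.57 (SE 0.217) in resting, stimulated, DMSO and GW4869 cultures, and the GCC folds -2.27 (SE 0.277), -3.36 (SE 0.298), -3.37 (SE 0.312) and -3.72 (SE 0.331). All 8 calls held under every alternative tried. GCC-2-1 rested on 13 to 76 counts in the EV libraries of the 3-day cultures. The ratio of CCC to GCC counts of this kind was 0.0666 ± 0.0097 (SD, n = 3) in resting cells and 3.58 ± 0.615 in resting EVs, and 0.245 ± 0.0636 and 13.5 ± 4.02 in stimulated cells and EVs.

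**Figure D4:**
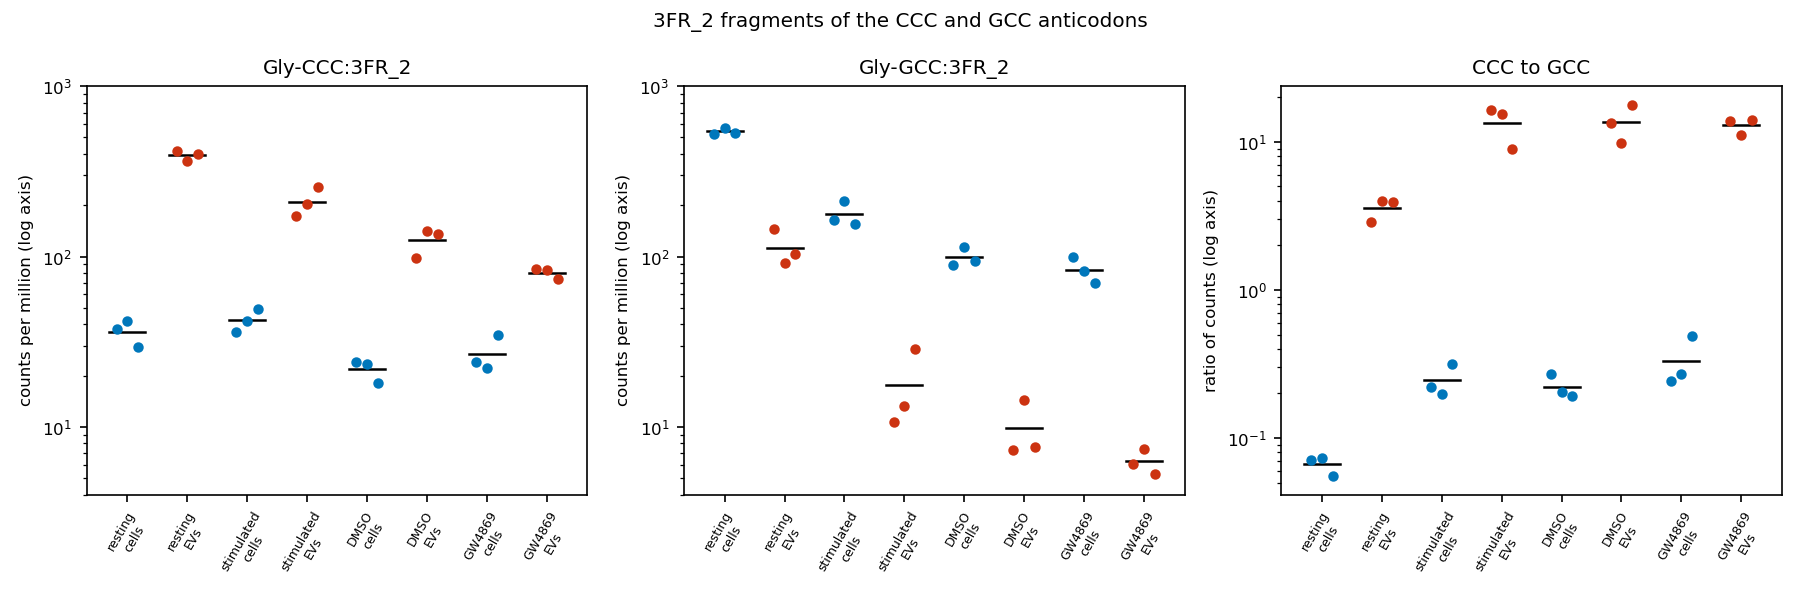
Levels of the 3FR_2 fragments of the anticodons CCC (left, 2 loci) and GCC (middle, 1 locus) in CPM, and the ratio of their counts (right), by group (x axis), all on log axes. Points are libraries, blue for cells and red for EVs, and lines are means of 3. CCC is higher and GCC lower in the EVs of each condition, and the ratio is at most 0.491 in the cell libraries and at least 2.88 in the EV libraries.

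The kind 3_Internal had 2 glycine sums, of GCC and CCC. GCC 3_Internal was lower in resting EVs (49.5, 44.2 and 43.6 CPM) than in resting cells (93.5, 93.4 and 101 CPM), with a fold of -1.07 (SE 0.236, adjusted p = 0.000775), and had no call in the other 3 conditions, although library totals gave one in DMSO cultures (0.78 in place of 0.25), and with GW4869 DESeq2 (-0.52) and leaving out both libraries that stand apart (-0.65) gave one in place of -0.25. CCC 3_Internal had from 4 to 27 counts a library. Its resting fold was -1.17 with an adjusted p of 0.0499 and overlapping groups, and it held in 7 of 14 alternatives. It was lost with library totals (-0.95), with only the groups compared (-1.21), without both libraries that stand apart (-0.90) and without resting EVs replicate 1 (-0.93) or replicate 3 (-0.90) or resting cells replicate 2 (-0.68) or replicate 3 (-1.30). Its GW4869 fold was -1.55 (adjusted p = 0.00206), lost with library totals (-0.81).

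Locus by locus, 35 of the 106 glycine features were higher and 44 lower in resting EVs than in resting cells, where 18.9% of all 4408 features were higher and 15.4% lower. The median glycine fold was -0.16 and that of all features 0.10. Without resting EVs replicate 3, 29 glycine features were higher and 41 lower, beside 767 and 602 of all 4408. In stimulated cultures 65 were higher and 12 lower (27.7% and 25.8% of all features), with medians of 1.16 and 0.07. This split was 81 and 2 with library totals, beside 1817 and 689 of all 4408 features. On the scale of the nuclear tRNAs it was 56 and 22, beside 274 and 272 of the 780 nuclear tRNA features. DMSO cultures had 42 higher and 18 lower (37.0% and 28.4%), or 71 and 15 with library totals, beside 2359 and 794 of all features. GW4869 cultures had 23 higher and 25 lower (36.2% and 32.0%). With library totals this split was 51 and 2, beside 2445 and 821 of all features. On the scale of the nuclear tRNAs it was 27 and 19, beside 197 and 277 of the 780. Without replicate 3 of the GW4869 cells it was 38 and 30, beside 1564 and 1359 of all 4408. Loci of 1 family share sequence and can share reads, so these counts of features may hold the same RNA more than once.

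The other 674 nuclear tRNA features were counted in the same way. All 14 glycine 5FR_2 features were higher in stimulated EVs, while of 95 others 17 were higher and 42 lower. For 5FR_1, 27 of 27 glycine and 124 of 145 other features were higher there, and for 5_half_up 10 of 26 glycine features were higher and 10 lower, beside 23 and 36 of 76 others. In resting cultures 13 of 14 glycine and 73 of 95 other 5FR_2 features were lower in EVs, and 15 of 27 and 82 of 145 5FR_1 features were higher. For 3FR_1, 9 of 22 glycine and 11 of 185 other features were higher there and 13 and 76 lower, and for 5_half_up 6 of 26 and 1 of 76 were higher and 12 and 18 lower. For 3FR_2, 2 of 3 glycine and 45 of 55 other features were higher there and 1 and 7 lower. The difference between glycine and the other tRNAs was not tested.

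Among single loci, tRNA-Gly-TCC-2-1 5FR_1 had the highest EV to cell fold in stimulated cultures, 4.45 (SE 0.289, adjusted p = 2.4e-12), with 6.45 ± 0.958 CPM (SD, n = 3) in the cells and 141 ± 30.7 CPM in the EVs. The highest in the other conditions were tRNA-Gly-CCC-1-2 3FR_2 in resting (3.77, SE 0.239), tRNA-Gly-TCC-1-5 3FR_1 in DMSO (3.59, SE 0.28) and tRNA-Gly-TCC-1-7 5FR_1 in GW4869 cultures (2.73, SE 0.302). The lowest were tRNA-Gly-GCC-1-2 5FR_2 in resting cultures (-2.37, SE 0.431, with 31.7 ± 7.6 CPM in the cells and 6.14 ± 1.31 CPM in the EVs) and tRNA-Gly-GCC-2-1 3FR_2 in the other 3. By mean level over the 24 libraries the leading loci of their kinds were tRNA-Gly-CCC-1-2 for 5FR_1 (328 CPM), 3FR_1 (54.0 CPM), 5FR_2 (16.2 CPM) and 3_Internal (7.51 CPM), tRNA-Gly-CCC-1-1 for 5_half_up (193 CPM) and 5FR_S (44.7 CPM), and tRNA-Gly-GCC-2-1 for 3FR_2 (129 CPM).

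Copies within a family mostly differed about as much as independent counts at 1 level would. This cannot tell a split of shared reads from separate copies at equal levels, and how reads were assigned is not given. Over the 8 copies of GCC-2, the variance of the 5FR_1 counts divided by their mean had a median of 1.04 over the 24 libraries, where independent counting gives a value near 1, and for 5_half_up the median was 1.05. Over the 7 copies of TCC-1 it was 1.29 for 5FR_1 and 1.82 for 3FR_1, with a highest value of 8.97, so single TCC-1 copies did differ in 3FR_1 in some libraries.

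Families were then compared with loci summed within each. GCC-1 (3 loci) and GCC-2 (8 loci) carry the same anticodon, and their 5FR_1 fragments parted in resting cultures. GCC-1 was at 198, 222 and 169 CPM in resting cells and 389, 253 and 407 CPM in resting EVs, a fold of 0.83 (SE 0.237, adjusted p = 0.00766) that lost its call without resting EVs replicate 3 (0.70, adjusted p = 0.0634). GCC-2 was at 1573, 1353 and 1549 CPM in resting cells and 1291, 831 and 2082 CPM in resting EVs, a fold of -0.09 (SE 0.358). In stimulated cultures the folds were 2.24 (SE 0.243) and 2.20 (SE 0.375), and in DMSO cultures 1.03 (SE 0.235) and 1.60 (SE 0.368). The drop of 5FR_1 in stimulated against resting cells was also uneven: GCC-2 stood at 281, 309 and 262 CPM in stimulated cells and GCC-1 at 118, 155 and 127 CPM. For 5_half_up the resting folds of GCC-1 (0.19, SE 0.31) and GCC-6 (-0.22, SE 0.305) had no call, while GCC-2 was lower in EVs (-1.24, SE 0.276). The difference between the families was not tested.

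The locus CCC-5-1 was counted only as 5FR_1 and 5_half_up, and in these kinds it went with GCC-2 and not with CCC-1. Its 5FR_1 count stayed between 0.883 and 1.17 times the mean GCC-2 copy in all 24 libraries, and between 0.205 and 0.966 times the mean CCC-1 copy. Its 5_half_up count stayed between 0.852 and 1.31 times GCC-2. The EV to cell folds of CCC-5 5FR_1 were -0.12, 2.30, 1.61 and 0.26 in resting, stimulated, DMSO and GW4869 cultures, and those of CCC-1 were 1.37, 1.88, 2.20 and 0.48. GCC-3, GCC-4 and GCC-5 also ran with GCC-2 in 5FR_1 (0.789 to 1.23 times its mean copy), and GCC-6 ran with GCC-1 (0.918 to 1.21 times). For 5_half_up, CCC-1 was higher in resting EVs (0.90, SE 0.213) and stimulated EVs (0.87, SE 0.212) while CCC-5 was lower (-1.08, SE 0.281, and -0.92, SE 0.276). The CCC sums of these 2 kinds given above therefore hold both patterns. How reads that fit loci of different families were assigned is not given. These ratios cannot tell a split of shared reads from separate loci at equal levels. Sums of different anticodons may share reads in the same way.

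**Figure D5:**
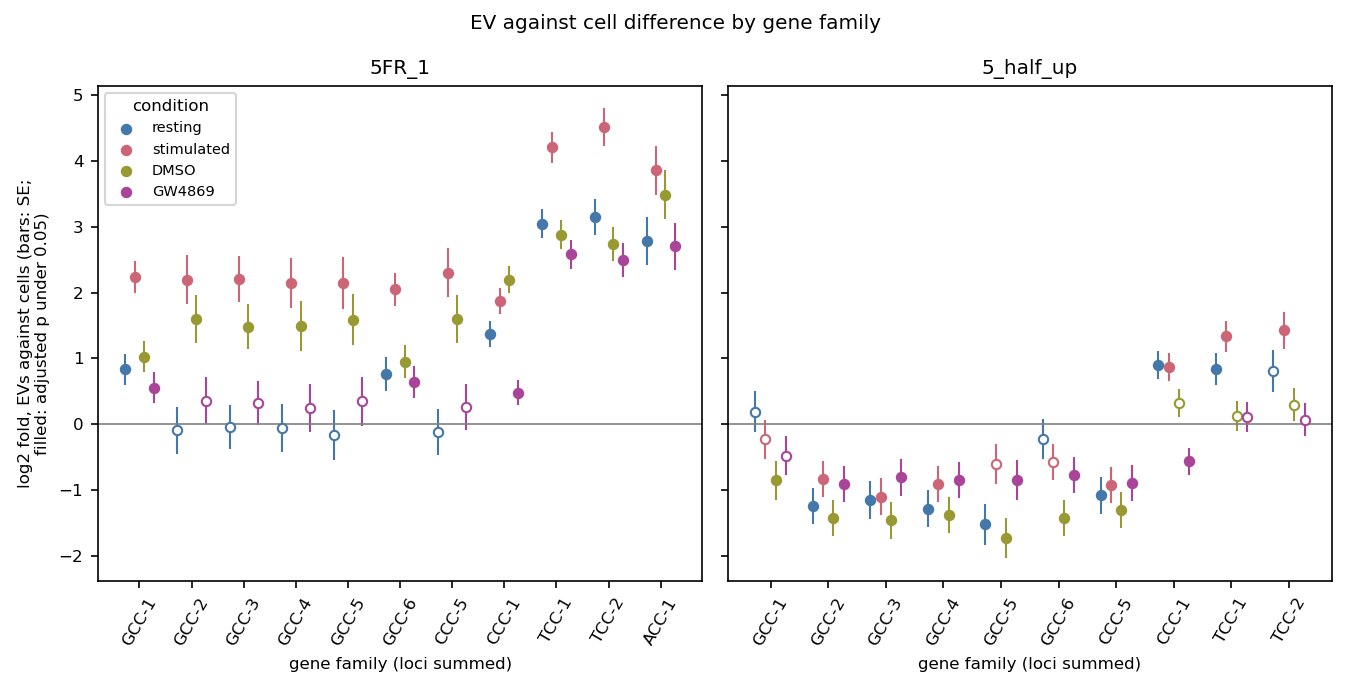
Log2 fold of EVs against cells (y axis) for 5FR_1 (left) and 5_half_up (right) of each glycine gene family (x axis), in 4 conditions. Bars are SE and filled points have an adjusted p under 0.05. CCC-5 lies near GCC-2 at -0.12 in resting and 2.30 in stimulated cultures for 5FR_1, and CCC-1 lies at 1.37 and 1.88.

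Stimulated and resting cultures were compared within cells, within EVs and as the difference of their EV to cell ratios. In cells 12 of the 18 sums were lower and 0 higher after stimulation (19.2% and 22.5% of all features), and 6 more had an adjusted p above the threshold. GCC 5FR_1 fell by 2.05 (SE 0.329, adjusted p = 1.06e-05), GCC 5FR_2 by 2.02 (SE 0.239) and GCC 3FR_2 by 1.62 (SE 0.268), and these 3 calls held under every alternative. The other 9 were lost when library totals set the scale: TCC 5FR_1 went from -0.94 to 0.02, CCC 5FR_1 from -1.09 to -0.12, GCC 3FR_1 from -1.15 to -0.18 and GCC 5_half_up from -0.68 to 0.27. The last, whose groups overlapped, was also lost without resting cells replicate 1 (-0.75) or replicate 2 (-0.61) or stimulated cells replicate 1 (-0.52) or replicate 3 (-0.68). On the scale of the nuclear tRNAs all 9 were lost as well, and the same 4 were -0.04, -0.18, -0.23 and 0.21. Among the rest, ACC 5FR_1 (-1.27) was lost without resting cells replicate 3 (-1.20), CCC 5FR_2 (-1.28) without resting cells replicate 2 (-0.98), and GCC 3_Internal (-0.64) without stimulated cells replicate 2 (-0.63) or replicate 3 (-0.64). Over the loci, 62 were lower and 5 higher (23.1% and 23.0%). With library totals this became 26 and 12, beside 342 lower and 1991 higher of all 4408 features. On the scale of the nuclear tRNAs it became 23 and 29, beside 130 and 169 of the 780. On the TMM scale the other nuclear tRNAs fell as well, with 449 of 674 features lower and 36 higher. Their median fold was -1.10, beside -0.78 for the glycine features. Library totals moved the median of all features by 0.82 in this comparison. All nuclear tRNA features together held 2.95% to 3.33% of the counts in resting cells and 2.39% to 2.63% in stimulated cells. The lowest fold was that of tRNA-Gly-GCC-2-4 5FR_1 (-2.42, SE 0.403), and the highest that of tRNA-Gly-GCC-1-1 5_half_up (1.00, SE 0.354, adjusted p = 0.022). Of the 15 GCC 5_half_up loci 4 were higher and 11 lower, so the GCC sum of this kind holds both directions.

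In EVs 6 sums were higher and 3 lower after stimulation (32.0% and 24.6% of all features). TCC 3FR_1 rose by 2.14 (SE 0.194, adjusted p = 1.29e-09), GCC 5FR_S by 1.42 (SE 0.315), CCC 5FR_S by 1.12 (SE 0.216) and GCC 5FR_2 by 1.05 (SE 0.234), and these held under every alternative. GCC 3FR_1 (0.46) and GCC 3_Internal (0.60) were also called, and each call held in 6 of 15 alternatives. Both calls were lost under RLE factors and in DESeq2 (0.26 and 0.40 in both), with a minimum count of 50 (0.32 and 0.47), without both libraries that stand apart (0.33 and 0.49) and without resting EVs replicate 3 (0.33 and 0.49), replicate 2 (0.32 and 0.51) and stimulated EVs replicate 2 (0.47 and 0.58) or replicate 3 (0.33 and 0.56), and for 3_Internal resting EVs replicate 1 (0.57). With only the groups compared GCC 3FR_1 lost its call (0.37). GCC 3FR_2 fell by 2.71 (SE 0.296), which held under every alternative, while CCC 3FR_2 fell by 0.91 (SE 0.199) and CCC 5_half_up by 0.80 (SE 0.214), values that became 0.19 and 0.30 with library totals, and the second was -0.33 with no call on the scale of the nuclear tRNAs. TCC 5FR_1 (0.29), CCC 5FR_1 (-0.16) and GCC 5FR_1 (0.13) had no call, and with library totals they were 1.38, 0.95 and 1.25. Over the loci 33 were higher and 6 lower (28.9% and 25.2%). With library totals this was 91 and 1, beside 2880 and 426 of all 4408 features. With RLE factors it was 27 and 10, beside 1053 and 1285. Without resting EVs replicate 3 the split was 25 and 6, beside 1021 and 962. All 3 glycine and all 55 other 3FR_2 features were lower in stimulated EVs.

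The ratio of EVs to cells was higher in stimulated than in resting cultures for 10 sums and lower for 2 (14.0% and 19.1% of all features). The largest differences were those of GCC 5FR_2 (3.08, SE 0.334, adjusted p = 1.11e-07), GCC 5FR_S (2.63, SE 0.43), TCC 3FR_1 (2.38, SE 0.276) and GCC 5FR_1 (2.19, SE 0.452). Without resting EVs replicate 3 the GCC 5FR_1 value was 2.56 (SE 0.461). Lower ratios belonged to CCC 3FR_2 (-1.13, SE 0.298) and GCC 3FR_2 (-1.09, SE 0.387). The last was lost without resting EVs replicate 1 (-0.89), stimulated EVs replicate 1 (-0.82) or replicate 2 (-0.93), stimulated cells replicate 2 (-0.89) or any 1 library of the resting cells (-1.11 to -1.08). CCC 5FR_1 (0.93, adjusted p = 0.0176) held in 17 of 21 alternatives and was lost on the scale of the nuclear tRNAs (0.49), under RLE factors (0.82), in DESeq2 (0.82) and without stimulated EVs replicate 3 (0.75). No 5_half_up sum had a call here, with differences of 0.40 (GCC, SE 0.385), 0.04 (CCC, SE 0.302) and 0.56 (TCC, SE 0.333). Without stimulated cells replicate 2 the TCC value was 0.90, with an adjusted p of 0.0442. Over the loci 62 were higher and 3 lower (15.2% and 20.7%). On the scale of the nuclear tRNAs this was 40 and 11, beside 106 and 169 of the 780. Without resting EVs replicate 3 it was 56 and 2, beside 568 and 837 of all 4408. The 62 included 14 of 14 glycine 5FR_2 features beside 66 of 95 others, and 21 of 27 glycine 5FR_1 features beside 43 of 145 others. For 3FR_2, 3 of 3 glycine and 45 of 55 other features had a lower ratio. The locus with the highest difference was tRNA-Gly-GCC-1-2 5FR_2 (3.65, SE 0.575) and that with the lowest tRNA-Gly-CCC-1-2 3FR_2 (-1.58, SE 0.312).

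GW4869 was compared with its vehicle in both compartments. In EVs 5 sums were lower and 0 higher, where 9.64% of all features of the summed table were lower and 8.24% higher. CCC 5FR_1 was at 1034, 1921 and 1426 CPM in DMSO EVs and at 639, 691 and 542 CPM in GW4869 EVs, a fall of 1.23 (SE 0.211, adjusted p = 0.000571). GCC 5FR_2 was at 158, 259 and 160 CPM in DMSO EVs and at 89.3, 105 and 90.1 CPM in GW4869 EVs, a fold of -1.01 (SE 0.233, adjusted p = 0.00541). CCC 3FR_1 (-0.75), CCC 3FR_2 (-0.64) and TCC 3FR_1 (-0.59) were the others. The groups of these 5 called sums were apart, which was not counted over all features. None of the 5 calls held when only the DMSO and GW4869 EV libraries entered the fit (adjusted p from 0.136 to 0.271). Without DMSO EVs replicate 2 the calls of all but CCC 5FR_1 were lost (GCC 5FR_2 -0.73, CCC 3FR_1 -0.64, CCC 3FR_2 -0.52, TCC 3FR_1 -0.51). Without GW4869 EVs replicate 3 the 3FR calls were lost (CCC 3FR_1 -0.60, CCC 3FR_2 -0.68, TCC 3FR_1 -0.62), and without DMSO EVs replicate 3 those of CCC 3FR_2 (-0.58) and TCC 3FR_1 (-0.55). With library totals the 3FR folds were -0.41, -0.30 and -0.25 in the same order, with no call. On the scale of the nuclear tRNAs they were -0.25, -0.11 and -0.07, and GCC 5FR_2 was -0.48, all with no call, while CCC 5FR_1 was -0.68 and kept its call. Over the loci 17 were lower and 0 higher (9.69% and 7.89%), led by tRNA-Gly-CCC-1-2 5FR_1 (-1.42, SE 0.208). Of the 674 other nuclear tRNA features 100 were lower and 0 higher, with a median fold of -0.49 beside -0.32 for glycine. The glycine counts under other settings follow. With library totals 3 were lower (109 of all 4408), on the scale of the nuclear tRNAs 2 (14 of 780), and with only these groups in the fit 0. Single omissions left 2 (without DMSO EVs replicate 2), 7, 6 and 3 (without GW4869 EVs replicate 1, 2 and 3), 21 and 16 (without DMSO EVs replicate 1 and 3).

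In cells no glycine sum and no glycine feature was called between GW4869 and DMSO by edgeR, where 0.113% of all features were lower and 2.88% higher (0.105% and 3.24% in the summed table), and DESeq2 made no call either. At an unadjusted p under 0.05 there were 20 glycine features (18.9%) with edgeR, beside 12.98% of all features, and 19 (17.9%, beside 12.3%) with DESeq2. Without GW4869 cells replicate 3 there were 6 (5.66%, beside 10.9% of all features). Copies of a family can share reads, so these features are not independent. Adjusted calls appeared without GW4869 cells replicate 2 (4 higher), with library totals (3 higher, beside 215 of all 4408 features), on the scale of the nuclear tRNAs (2 higher, beside 22 of 780) and with only these 2 groups in the fit (1 higher). The EV to cell ratio was lower with GW4869 than with DMSO for 3 sums and higher for 0 (6.35% and 1.84% of all features): CCC 5FR_1 by -1.71 (SE 0.298, adjusted p = 0.000951), CCC 3FR_1 by -1.002 (SE 0.296, adjusted p = 0.0369) and TCC 3FR_1 by -0.93 (SE 0.271, adjusted p = 0.0336). The first held under every alternative. The other 2 held in 6 and 8 of 21 alternatives. On the scale of the nuclear tRNAs they were -0.54 and -0.43 with no call. Their calls were also lost with library totals (-0.79 and -0.74), under RLE factors (-0.99 and -0.92), with only the groups compared (-0.95 and -0.89), with the replicate block (-1.04 and -0.95) and without both libraries that stand apart (-0.95 and -0.89). Both were lost without GW4869 cells replicate 3 (-1.03 and -0.97, adjusted p = 0.0565 and 0.0504). Both were also lost without GW4869 cells replicate 2 (-1.003 and -0.84), GW4869 EVs replicate 3 (-0.83 and -0.94), DMSO EVs replicate 2 (-0.79 and -0.75) or replicate 3 (-0.93 and -0.89) and DMSO cells replicate 2 (-0.87 and -0.80) or replicate 3 (-0.90 and -0.67). CCC 3FR_1 was lost without DMSO cells replicate 1 (-0.96) or GW4869 cells replicate 1 (-0.97) too. Over the loci 4 were lower and 0 higher (5.83% and 1.75%), among them tRNA-Gly-GCC-4-1 5FR_2 (-1.84, SE 0.533). On the scale of the nuclear tRNAs 2 were lower and 5 higher, beside 25 and 5 of all 780 nuclear tRNA features.

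DMSO and stimulated cultures were both stimulated for 3 days, and the labels give no other treatment than the vehicle. In cells 7 sums were higher with DMSO and 3 lower (11.1% and 17.6% of all features), and 5 of these 10 calls held under every alternative. The 3 sums of 5_half_up were all higher. TCC 5_half_up was at 50.5, 92.5 and 59.3 CPM in stimulated cells and at 327, 364 and 342 CPM in DMSO cells, a rise of 2.36 (SE 0.241, adjusted p = 1.41e-07). CCC 5_half_up rose by 1.45 (SE 0.217) and GCC 5_half_up by 1.14 (SE 0.275). In this kind 26 of 26 glycine features and 70 of 76 features of the other nuclear tRNAs were higher in DMSO cells. Over the loci 40 were higher and 6 lower (11.9% and 17.2%). This was 37 and 20 on the scale of the nuclear tRNAs, beside 139 and 145 of the 780, and 27 and 3 without stimulated cells replicate 1. The highest fold was that of tRNA-Gly-TCC-1-2 5_half_up (2.49, SE 0.267) and the lowest that of tRNA-Gly-CCC-1-1 3FR_2 (-1.24, SE 0.323). In EVs 2 sums were higher with DMSO, TCC 5_half_up (1.14, SE 0.229) and CCC 5_half_up (1.00, SE 0.214), and 4 were lower, led by GCC 3FR_1 (-0.77, SE 0.175), beside 13.3% higher and 11.0% lower of all features; the 2 higher calls held under every alternative, and that of GCC 3FR_1 was lost when only the 2 EV groups entered the fit (-0.74, adjusted p = 0.0729). The other lower sums were CCC 3FR_2 (-0.75) and TCC 3FR_1 (-0.64), which each held in 11 of 14 alternatives, and CCC 3FR_1 (-0.57), which held in 5. All 3 were lost with only these groups in the fit and without DMSO EVs replicate 1 (-0.60, -0.55 and -0.42) or stimulated EVs replicate 3 (-0.59, -0.48 and -0.47), and CCC 3FR_1 also without DMSO EVs replicate 3 (-0.64) or stimulated EVs replicate 2 (-0.57), with library totals (-0.55), under RLE factors (-0.52), in DESeq2 (-0.53) and with the replicate block (-0.57, adjusted p = 0.0522). Over the loci 10 were higher and 15 lower (13.6% and 9.91%), from tRNA-Gly-TCC-1-5 5_half_up (1.41, SE 0.257) to tRNA-Gly-GCC-1-3 3FR_1 (-0.88, SE 0.247). The sources used here do not say whether the DMSO and stimulated libraries were prepared together, so the vehicle and the preparation cannot be told apart.

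Of 44 genes that act in tRNA transcription, processing, charging, modification or cleavage, 7 were among the counted features. The counts are small fragments within these genes and no mRNA level. In EVs against cells 4 of the 7 were called higher and 1 lower in resting cultures (18.9% and 15.4% of all features), 2 and 2 in stimulated (27.7% and 25.8%), 3 and 2 in DMSO (37.0% and 28.4%), and 3 and 1 in GW4869 cultures (36.2% and 32.0%). Rpph1, the RNA of the enzyme RNase P that trims the 5' end of tRNA precursors, was higher in EVs by 1.51 (SE 0.234), 0.60 (SE 0.197) and 0.69 (SE 0.199) in resting, stimulated and DMSO cultures and had a fold of -0.01 with GW4869. Rmrp, the related RNA of RNase MRP, went from 0.92 (SE 0.247) in resting to -1.84 (SE 0.224) in GW4869 cultures. The others were Nsun2, which methylates tRNAs, Dicer1, which cuts double-stranded RNA, Brf1, a factor of RNA polymerase III, Pop1, a subunit of RNase P, and Alkbh1, which demethylates tRNAs.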

How the data were processed

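Small RNA was sequenced from CD4+ T cells and their EVs, 24 libraries in 8 groups of 3. Each deposited file holds whole-number read counts per feature, made by the authors, and per the file headers the columns are a feature name and its count. Per the submitters' processing notes, Bowtie was used with the mouse builds GRCm38 and mm10, and how reads that fit several tRNA copies were assigned is not given in the sources used here. Each file has 4441 lines, and removing 33 lines that fully repeated another gave 4408 features. The smallest glycine count in any library was 4, so only fragments with reads in every library were seen.

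Groups came from the labels. Counts were fitted in edgeR 4.0.16 (R 4.3.3) with its quasi-likelihood test, TMM factors (0.56 to 1.76), a filter on low counts with a minimum of 10 that removed 0 features, and 1 model over the 8 groups with 16 residual degrees of freedom. Benjamini-Hochberg adjustment ran over all 4408 features, over 3798 after tRNA loci were summed by amino acid, anticodon and kind, and over 3971 after they were summed by family, a step added after seeing the data. The code was tested on simulated counts. Alternatives were RLE factors, library totals, a scale set by the nuclear tRNAs, DESeq2 1.42.0, a minimum count of 50, no filter, only the groups compared, a replicate block, each replicate left out, and, added after seeing the data, both libraries that stand apart left out. Values in every library were given for the 6 sums with the highest mean and those called the same way in all 4 EV comparisons. Among loci the highest mean of each kind and the largest and smallest called fold of each comparison with groups apart were named. Members, lists and rules were chosen with earlier results of these data known. CCC 5FR_1, GCC 5FR_2 and TCC 5_half_up examples in other comparisons were chosen after their values were seen. The SE of a fold is its absolute value divided by the square root of the F statistic of the edgeR test. It draws on dispersions moderated across features and is not the spread of the compared libraries alone.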

Additional observations from a re-analysis of the deposited data

Results flagged for a closer look

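The following sums are listed because the EV to cell ratio differed between conditions in the edgeR test of that difference, given as log2 differences. From resting to stimulated cultures the ratio was higher for GCC 5FR_2 (3.08), GCC 5FR_S (2.63), TCC 3FR_1 (2.38), GCC 5FR_1 (2.19), CCC 5FR_2 (1.86), GCC 3FR_1 (1.60), CCC 5FR_S (1.497), GCC 3_Internal (1.24), TCC 5FR_1 (1.23) and CCC 5FR_1 (0.93). It was lower for CCC 3FR_2 (-1.13) and GCC 3FR_2 (-1.09). From DMSO to GW4869 cultures it was lower for CCC 5FR_1 (-1.71), CCC 3FR_1 (-1.002) and TCC 3FR_1 (-0.93).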

How the results depend on the processing

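The share of the 106 glycine features called moved by more than 1.5 times under these settings. For the EV to cell ratio with GW4869 against DMSO (3.77%) it was 1.89% with library totals, with only the groups compared and with the replicate block, 6.60% on the scale of the nuclear tRNAs, 7.78% with a minimum count of 50 and 16.7% for summed loci. For stimulated against resting cells (63.2%) it was 35.8% with library totals, and for the EVs (36.8%) 86.8% with library totals and 62.3% on the nuclear tRNA scale. Of all 4408 features, library totals called 1991 higher and 342 lower in these cells, and 2880 and 426 in the EVs. For GW4869 against DMSO EVs (16.04%) it was 2.83% with library totals, 1.89% on the nuclear tRNA scale, 0 with only the groups compared and 27.8% for summed loci, and for the cells (0) 2.83%, 1.89% and 0.971% in the first 3 of these settings. For DMSO against stimulated EVs (23.6%) it was 41.5% on the nuclear tRNA scale and 5.66% with only the groups compared.

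Leaving out 1 replicate gave 66.0% to 71.7% for EVs against cells in resting, 67.0% to 74.5% in stimulated, 53.8% to 56.6% in DMSO and 34.0% to 64.2% in GW4869 cultures, 54.7% to 60.4% for the ratio of stimulated to resting and 1.89% to 11.3% for that of GW4869 to DMSO. For stimulated against resting it gave 46.2% to 59.4% in cells and 29.2% to 36.8% in EVs, for GW4869 against DMSO 1.89% to 19.8% in EVs and 0 to 3.77% in cells, and for DMSO against stimulated 17.0% to 34.0% in EVs and 28.3% to 43.4% in cells.

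Directions turned with the scale. In stimulated against resting cells, library totals and the nuclear tRNA scale gave CCC 3FR_1 0.84 and 0.79, CCC 5FR_S 0.59 and 0.53, CCC 5_half_up 0.11 and 0.0544, GCC 3_Internal 0.34 and 0.28, GCC 5_half_up 0.27 and 0.21, TCC 3FR_1 0.74 and 0.68 and TCC 5_half_up 0.58 and 0.52, and library totals gave TCC 5FR_1 0.0176. In EVs, library totals gave ACC 5FR_1 0.94, CCC 3FR_1 0.80, CCC 3FR_2 0.19, CCC 5FR_1 0.95, CCC 5_half_up 0.30 and GCC 5_half_up 0.81. For EVs against cells they gave 0.74 for CCC 3FR_1 (0.40 on the nuclear tRNA scale), 0.12 for CCC 5_half_up, 0.21 for GCC 3FR_1, 0.0795 for GCC 5FR_2 and 0.16 for the family CCC-1 5_half_up in GW4869 cultures, and 0.48 for GCC 3FR_1 in DMSO cultures, while the nuclear tRNA scale gave CCC 5_half_up -0.0373 in stimulated cultures. The cause was not tested.

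Same-numbered libraries did not pair by their deviations (correlations from -0.373 to 0.334), and with the replicate block 211 of the 216 summed values kept their direction and side of the threshold, 4 lost and 1 gained a call. Low counts limit CCC 3_Internal (4 to 27 a library), GCC 5FR_S (8 to 59) and, in the EVs of the 3-day cultures, GCC 3FR_2 (13 to 76). In the cell libraries they also limit ACC 5FR_1 (12 to 28) and CCC 5FR_2 (7 to 31).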
